A study of Sus scrofa with 6 samples.

Results

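Mucosal surfaces are defended by secreted IgA and by proteins that bind, starve or lyse bacteria, and the uterus that receives an embryo is such a surface. In this pathway plasma cells under the epithelium join IgA monomers with the J chain (JCHAIN), the polymeric immunoglobulin receptor (PIGR) of epithelial cells binds that polymer and carries it to the lumen, and XBP1 is the transcription factor that expands the secretory apparatus of plasma cells and glands. The antimicrobial proteins comprise lactoferrin (LTF) and lipocalin 2 (LCN2), which withhold iron, lysozyme (LYZ), bactericidal permeability-increasing protein (BPI) and peptidoglycan recognition protein 1 (PGLYRP1), which act on the bacterial envelope, the beta defensin PBD-1, and SLPI, a protease inhibitor of secretions. Several of these, LTF, LCN2, LYZ, BPI and PGLYRP1, are also stored in neutrophil granules.

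The genes were chosen by name, as all probe sets that the array's annotation gives to 1 of 10 genes of mucosal defence. Of the 10, 8 were named on the array, by 10 probe sets out of 23999 tested. PIGR and BPI had more than 1 probe set and the other 6 genes had 1 each, while LYZ and LCN2 carried no probe set under their names and were not analysed here. PBD-1 is not a symbol of the annotation and was matched through the gene table, where it is a synonym of a gene called DEFB1. A second gene of the same symbol, with the synonym PBD-2, has its own probe set on the array, so the values of both are given and the symbol alone does not tell them apart.

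The samples were epithelial scrapings of the uterine horns of 3 crossbred Landrace x Large White sows on day 6, with 1 array for each horn. In every sow 1 oviduct had received spermatozoa in diluent by laparoscopy and the other diluent alone, so that 1 horn held embryos at the blastocyst stage and the opposite horn oocytes. This gave 3 arrays with embryos and 3 with oocytes, in pairs of equal replicate number, which is the number of the sow. All sows were anaesthetised and operated on in the same way, and spermatozoa went only to the side of the embryos, so the presence of embryos and the exposure to spermatozoa cannot be told apart. The scraped stretch was the first 10 cm of the horn next to the oviduct, according to the labels. The values are intensity signals in arbitrary units, and the comparisons rest on log2 signals after cyclic loess normalization, tested with limma over all 23999 probe sets.

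The scrapings carried the markers of epithelium and of the tissue beneath it. The keratin KRT8 had a signal of 2988 and the cadherin CDH1 of 1315 as means of the horns with oocytes, and on each array at most 1 of 11 epithelial markers lay under the array's median signal. The stromal genes DCN and VIM were at 1794 and 1836. The median signal of an array ran from 30.6 to 35.7. The ratio of the 5' to the 3' signal of control transcripts falls with RNA degradation. For GAPDH it ranged from 0.200 to 0.355 with oocytes and from 0.130 to 0.243 with embryos, lower with embryos in 3 of 3 sows. For actin it ranged from 0.105 to 0.219 with oocytes and from 0.0577 to 0.149 with embryos, also lower in 3 of 3 sows. The part of RNA degradation in the differences between horns was not tested. In such bulk RNA fewer cells of a type and less RNA per cell cannot be told apart.

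No gene of mucosal defence passed the test between horns with embryos and horns with oocytes. With limma 0 of the 10 probe sets had an adjusted p under 0.05, where 0% of all probe sets did, and 0 had an unadjusted p under 0.05, where 2.88% did. With the sow as a block 0 of 10 passed as well, against 0% of the array, and 1 of 10, LTF, had an unadjusted p under 0.05, against 8.7%. In that fit 1 of 10 was higher and 0 of 10 lower at this p, against 3.75% and 4.95% of all probe sets. By their log2 fold changes 6 probe sets were higher with embryos and 4 lower, with a median of 0.22 against 0.01 over all probe sets. LTF was higher with embryos in each of the 3 sows, and 0 of 10 were lower in each, where 14.9% and 14.8% of all probe sets were. For 0 of the 10 did the 3 arrays with embryos lie wholly above or wholly below the 3 with oocytes, where 4.03% and 3.98% of all probe sets did.

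**Figure D1:**
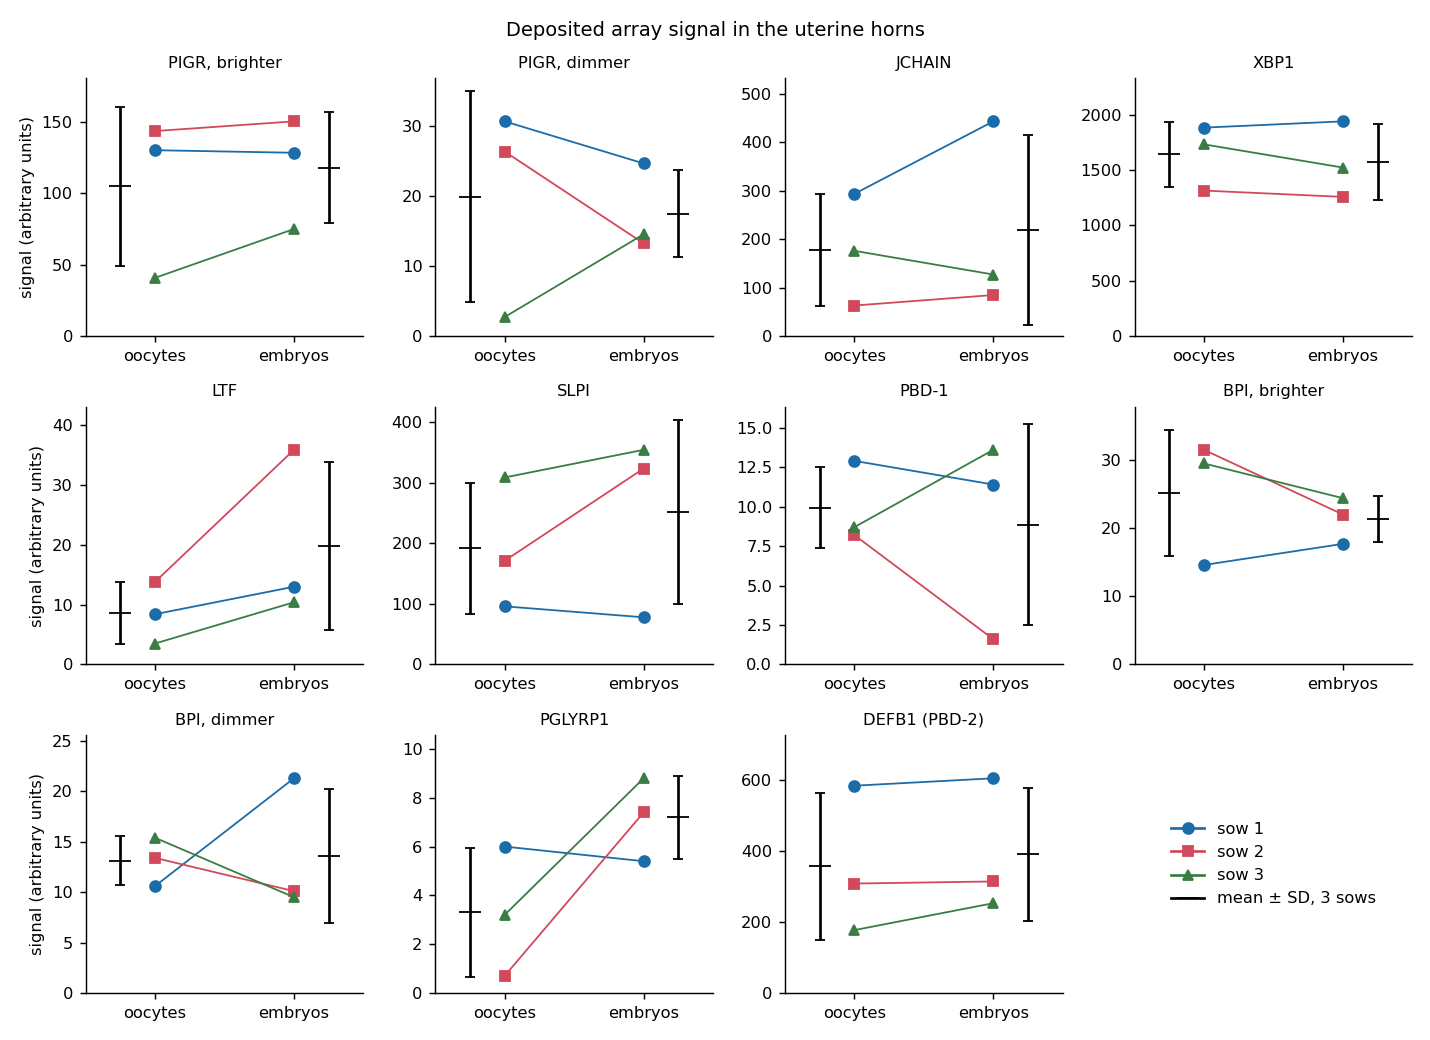
Deposited signal (y axis, arbitrary units, from 0, with its own scale in each panel) in horns with oocytes and with embryos (x axis) for the 10 probe sets and for the second DEFB1 gene. Symbols mark the sows, with a line between the horns of each, and black bars the mean ± SD over 3 animals, and LTF and the second DEFB1 gene are the panels in which all 3 lines go up.

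PIGR was measured by a brighter probe set and a dimmer one. At the brighter one sows 1, 2 and 3 had 130.1, 143.5 and 40.7 on the oocyte side and 128.3, 150.3 and 74.9 on the embryo side. Both horns of sow 3 lay below all others, and the groups overlapped. The ratio of embryos to oocytes was 0.986, 1.05 and 1.84 in the 3 sows, so that the mean difference came from sow 3. Limma put the difference at 0.30 on the log2 scale, with a standard error of 0.48 and an unadjusted p of 0.541, with a 95% interval of the fold from 0.580 to 2.63. With the sow as a block the interval narrowed to 0.943 to 1.61 (unadjusted p = 0.111). Without the oocyte horn of sow 3 the log2 fold change was -0.28. The dimmer probe set lay under the array's median on all 6 arrays, with 30.6, 26.3 and 2.7 with oocytes and 24.6, 13.2 and 14.5 with embryos. It was lower with embryos in sows 1 and 2 and higher in sow 3, so the PIGR probe sets shared their direction in sows 1 and 3 and parted in sow 2.

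JCHAIN, whose product links IgA and IgM into the polymers that PIGR carries, differed widely between sows. Sows 1, 2 and 3 had 293.6, 62.9 and 175.9 on the oocyte side and 443.4, 84.6 and 127.0 on the embryo side. It was highest in both horns of sow 1 and lowest in both horns of sow 2, and the groups overlapped. The horn with embryos was higher in sows 1 and 2, with ratios of 1.51 and 1.34, and lower in sow 3, with a ratio of 0.722. Limma put the difference at 0.18 on the log2 scale, with a standard error of 0.68 and an unadjusted p of 0.799 and its interval, from 0.385-fold to 3.33-fold, narrowed with the sow as a block to 0.860-fold to 1.49-fold. Its sign turned without the embryo horn of sow 1, to -0.52, and without the oocyte horn of sow 2, to -0.44.

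XBP1 had 1883.1, 1314.2 and 1731.7 with oocytes and 1939.8, 1257.0 and 1522.1 with embryos. Sow 2 was lowest in both horns, and the ratios of embryos to oocytes, 1.03, 0.957 and 0.879, lay close to 1. Its log2 fold change of -0.07, with a standard error of 0.20 and an unadjusted p of 0.752 in limma, had the narrowest interval of the 10 probe sets, from 0.696-fold to 1.31-fold and with the sow as a block from 0.856-fold to 1.07-fold.

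Among the antimicrobial proteins SLPI, which inhibits neutrophil elastase, was bright. In sows 1, 2 and 3 it read 96.0, 171.3 and 308.9 beside oocytes and 77.9, 323.7 and 354.6 beside embryos. Sow 1 was low in both horns, and the groups overlapped. The ratio of embryos to oocytes was 0.811 in sow 1, 1.89 in sow 2 and 1.15 in sow 3, and limma put the difference at 0.27 on the log2 scale, with a standard error of 0.59 and an unadjusted p of 0.663. Its interval with the sow as a block ran from 0.902-fold to 1.61-fold. Without the embryo horn of sow 1 the log2 fold change was 0.97, and without the embryo horn of sow 3 it was -0.11.

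Lactoferrin was dim, with 8.4, 13.8 and 3.5 with oocytes and 13.0, 35.9 and 10.4 with embryos, and 5 of its 6 signals lay under the array's median. Each horn with embryos exceeded the opposite horn of its sow, with ratios of 1.55, 2.60 and 2.97, yet the groups overlapped because the oocyte horn of sow 2 lay above the embryo horns of sows 1 and 3. Limma put the difference at 1.17 on the log2 scale, with a standard error of 0.69, an unadjusted p of 0.123 and an adjusted p of 1.00. With the sow as a block its interval excluded 1, from 1.09-fold to 4.67-fold, with an unadjusted p of 0.0321 and an adjusted p of 0.523. With 32 added to each signal, which damps differences at this level, it was 0.32. Without the embryo horn of sow 2 it was 0.56, without the oocyte horn of sow 3 0.67, and without the oocyte horn of sow 2 1.64.

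Most markers of phagocytes were also higher with embryos by their log2 fold changes, and 0 of them passed the adjusted test. Of 8 neutrophil markers 7 were higher with embryos and 2 of them in all 3 sows, which 14.9% of all probe sets were, and their summed signal was 334 to 900 (lowest and highest array) with oocytes and 520 to 1056 with embryos, higher in 2 of 3 sows. On every array 6 of the 8 lay under the median, among them the elastase ELANE, at 7.30 and 5.57, and the calgranulin S100A8, at 5.47 and 8.60. Most of the sum came from NCF1, at 400 with oocytes and 465 with embryos, and FCGR3A, at 185 and 199. Of 8 macrophage markers 8 were higher, 4 of them in all 3 sows against the same 14.9%, with a summed signal of 259 to 317 and 331 to 386, higher in 3 of 3 sows. The scavenger receptor MARCO was at 7.73 ± 3.52 (SD, n = 3) with oocytes and 20.7 ± 7.01 with embryos (adjusted p = 1.00 from limma). The part of these cells in the difference of lactoferrin was not tested.

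PGLYRP1 and BPI, other proteins of neutrophil granules, lay under the array's median on all 6 arrays. PGLYRP1 had 6.0, 0.7 and 3.2 with oocytes and 5.4, 7.4 and 8.8 with embryos. It was higher with embryos in sows 2 and 3 and lower in sow 1. Its log2 fold change of 1.54, the highest of the 10, rested on signals under 10. In limma its standard error was 0.84 and its unadjusted p 0.101. The oocyte horn of sow 2 stood far below the other arrays, and without it the log2 fold change was 0.66. Without the oocyte horn of sow 1 the log2 fold change was 2.14. With 32 added to each signal it was 0.15.

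The brighter BPI probe set had 14.6, 31.5 and 29.5 with oocytes and 17.7, 22.0 and 24.4 with embryos. The other had 10.6, 13.4 and 15.4 with oocytes and 21.3, 10.1 and 9.5 with embryos. At either probe set the embryo horn was the higher one in sow 1 and the lower one in sows 2 and 3, and their log2 fold changes were -0.19 and -0.05 (standard errors 0.41 and 0.44).

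The PBD-1 probe set was also under the array's median on 6 of 6 arrays, with 12.9, 8.2 and 8.7 with oocytes and 11.4, 1.6 and 13.6 with embryos. The embryo horn of sow 2 was the lowest and gave the log2 fold change of -0.65, with a standard error of 0.78 and an unadjusted p of 0.425 in limma, its sign, which without that array was 0.27. The probe set of the second DEFB1 gene was bright, with 583.3, 307.9 and 176.8 with oocytes and 604.2, 313.8 and 252.6 with embryos. Its signals fell into the order of sow 1, sow 2 and sow 3 in both groups. The ratios of embryos to oocytes were 1.04, 1.02 and 1.43, and the log2 fold change was 0.19 (standard error 0.46), with an interval from 0.966-fold to 1.35-fold with the sow as a block (unadjusted p = 0.106).

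**Figure D2:**
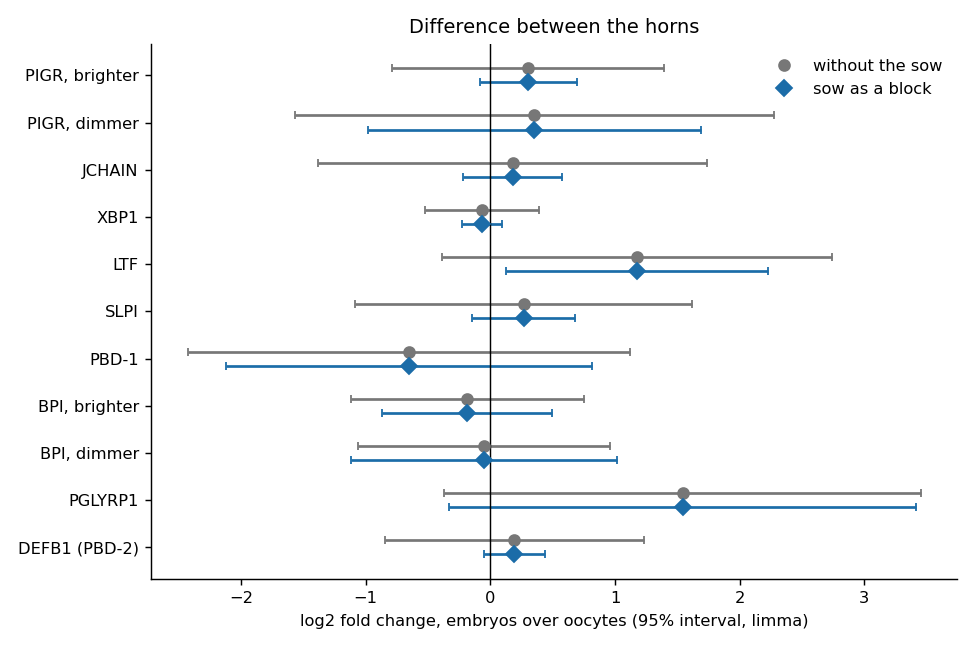
Log2 fold change of embryos over oocytes (x axis) for the 10 probe sets and the second DEFB1 gene (y axis), with 95% intervals from limma without the sow (grey circles) and with the sow as a block (blue diamonds). All intervals but that of the dimmer BPI probe set narrow with the block, by proportion most for PIGR (brighter), JCHAIN, XBP1, SLPI and the second DEFB1 gene. That of LTF with the block, from 0.12 to 2.23, is the one that does not reach 0.

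The same genes were then compared between the 3 sows, with the group in the model, a test added after the values had been seen. With limma 4 of the 10 probe sets differed between sows at an adjusted p under 0.05, where 11.3% of all probe sets did and 20.8% of those above the median signal. They were JCHAIN (adjusted p = 0.000483), SLPI (0.00142), the brighter PIGR probe set (0.00375) and XBP1 (0.00399), the 4 of the 10 whose mean signal lay above the median of the array. The second DEFB1 gene differed as well (adjusted p = 0.000302). These calls rested on a variance that follows the mean signal. With limma without that trend 0 of the 10 passed and 0 of all probe sets, with adjusted p of 0.266 for JCHAIN, 0.285 for SLPI, 0.293 for PIGR and 0.322 for XBP1. With arrays only shifted to the same median XBP1 had an adjusted p of 0.0586. Both arrays of a sow came from the same animal, so the animal and the handling of its samples cannot be told apart.

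The genes did not share 1 order of sows. JCHAIN was 5.01-fold higher in sow 1 than in sow 2, with sow 3 in between, and each pair of sows differed (adjusted p from limma 0.000247 for sows 1 and 2, 0.00705 for sows 1 and 3 and 0.0353 for sows 2 and 3). XBP1 had the same order over a range of 1.54-fold, and sows 1 and 2 differed (adjusted p = 0.00185) while sow 3 was set apart from neither (adjusted p = 0.117 and 0.0597). SLPI had another order, 3.74-fold higher in sow 3 than in sow 1. Limma did not set sows 2 and 3, its neighbours at the top, apart (adjusted p = 0.362). PIGR at the brighter probe set was 2.70-fold higher in sow 2 than in sow 3, and limma did not set sows 1 and 2 apart (adjusted p = 0.623). The second DEFB1 gene was 2.90-fold higher in sow 1 than in sow 3. The range of the sow means was set against the absolute difference between the horns of a sow, averaged over the sows, on the log2 scale. It was 4.70 times that average for JCHAIN, 7.18 times for XBP1, 3.99 times for SLPI, 4.36 times for PIGR and 7.94 times for the second DEFB1 gene. These probe sets had been called by the test between sows, which draws on the same values, so their ratios add no further support. The ratio was 1.62 for the dimmer PIGR probe set, 1.64 for LTF, 1.53 for PBD-1 and 2.69 for the brighter BPI probe set. For the dimmer BPI probe set and PGLYRP1 the averaged absolute difference between horns was the greater one, with ratios of 0.222 and 0.724. At the dimmer BPI probe set the horn differences went both ways. Their mean with signs was -0.05, smaller in size than the range of its sow means, 0.152.

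The makeup of the scrapings and the RNA differed between sows too. The summed signal of 8 stromal markers was 7673 and 7194 in the oocyte and embryo horns of sow 1, 3736 and 3652 in those of sow 2 and 5171 and 5441 in those of sow 3. A total of 7 of the 8 had the order of JCHAIN, sow 1 above sow 3 above sow 2, which 20.4% of all probe sets had. The summed signal of 11 epithelial markers was lowest in sow 1, at 9283 and 9017, against 11472 to 12314 in the other sows. Singly 5 of the 11 had the order of SLPI, sow 3 above sow 2 above sow 1, which 16.7% of all probe sets had. The summed signal of 7 smooth muscle markers also had the order of JCHAIN, with 2507 and 1718 in the oocyte and embryo horns of sow 1, 691 and 818 in sow 2 and 1031 and 1140 in sow 3. Singly 3 of the 7 had that order. The other 4 had the order of the second DEFB1 gene, sow 1 above sow 2 above sow 3, which 15.6% of all probe sets had. The sum of 3 red cell markers had the order of SLPI, at 382.6 and 449.5 in sow 1, 755 and 718 in sow 2 and 1124 and 1095 in sow 3. Singly 2 of the 3, ALAS2 and AHSP, had that order, against 16.7% of all probe sets. HBB did not, with mean signals of 290, 253 and 252 in sows 1, 2 and 3. The GAPDH 5'/3' ratio followed the order of JCHAIN within each group, reading 0.355, 0.200 and 0.226 in the oocyte horns of sows 1, 2 and 3 and 0.243, 0.130 and 0.199 in the embryo horns. The part of epithelium, stroma, muscle, blood and RNA quality in the differences between sows was not tested.

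The genes whose pattern over the 6 arrays lay nearest to that of JCHAIN, the probe set with the widest range among the 4 bright ones, were sought next. The search covered the 6103 probe sets of other genes that carry 1 symbol and lie above the median signal. Bright probe sets without a single symbol were not compared. The measure was the root mean square difference of mean-centred log2 values. The nearest was LOC100152327, at 0.17, which in sows 1, 2 and 3 read 515.0, 131.1 and 336.9 beside oocytes and 615.9, 160.0 and 229.1 beside embryos. Like JCHAIN it was higher with embryos in sows 1 and 2 and lower in sow 3, which the measure of likeness already takes in. In the gene table of the Sscrofa11.1 assembly this gene overlaps 12 others, of which 4 are typed as V segments and 1 as a C region, the segment types of antigen receptor chains. Next came RARRES1, a retinoid-responsive gene, at 0.32, GPX7, a peroxidase of the endoplasmic reticulum, at 0.33, SERPINI1, a serine protease inhibitor, at 0.35 and PPP1CA, a phosphatase subunit, at 0.38. This is a description of 6 arrays from 3 animals, and the points share their sows.

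**Figure D3:**
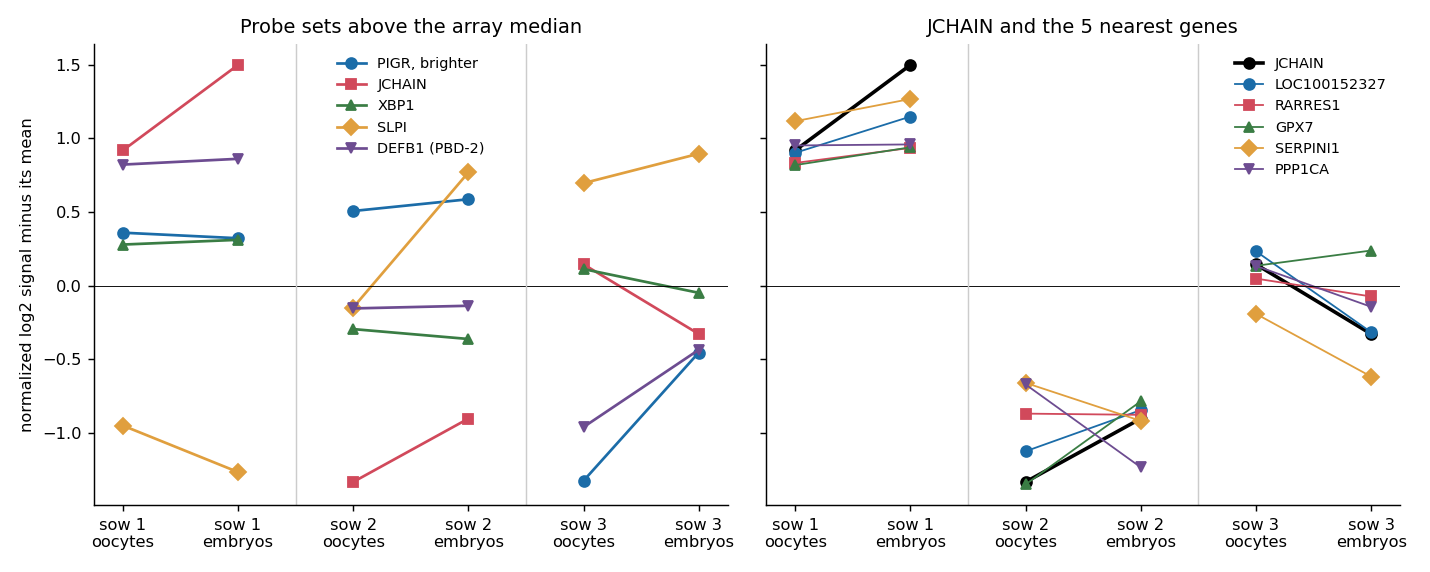
Normalized log2 signal minus its mean over the 6 arrays (y axis) by sow and horn (x axis), for the 4 bright probe sets and the second DEFB1 gene (left) and for JCHAIN with its 5 nearest genes (right), with lines joining the horns of a sow. JCHAIN is highest in sow 1 and lowest in sow 2, SLPI is lowest in sow 1 and PIGR is lowest in sow 3.

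The other genes of the pathway were read from lists, at the brightest probe set of each gene, and 0 of them passed an adjusted p of 0.05 between the horns with limma, with or without the sow as a block. Of the immunoglobulin and plasma cell genes 3 of 28 were named on the array, all 3 higher with embryos by their mean and 0 with an unadjusted p under 0.05, with a median log2 fold change of 0.25. TNFRSF17, the survival receptor of plasma cells, differed between sows (adjusted p = 0.00575), with mean signals of 2.50, 41.6 and 2.05 in sows 1, 2 and 3, so that it was highest in the sow where JCHAIN was lowest. SDC1, a proteoglycan of plasma cells and epithelium, had 51.6, 193 and 314 (adjusted p = 2.41e-05), the order of SLPI. CD38 was dim, at 4.20 with embryos. Both B lineage markers on the array, CD79B and CD27, were under the array's median, at 10.9 and 3.23 with oocytes and 8.53 and 2.73 with embryos.

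Of the genes of IgA cell homing 16 of 19 were named, 9 higher and 7 lower with embryos, with a median of 0.06 and 0 at an unadjusted p under 0.05. The 4 with the smallest p were the addressin MADCAM1, with a mean of 2.43 with oocytes and 7.10 with embryos, the integrin ITGB7 (11.4 and 7.27), the chemokine CXCL12 (8.87 and 13.3) and the cytokine IL10 (13.1 and 16.4), all of them dim. CCL28, the mucosal chemokine of IgA plasma cells, singled out after its values were seen, was bright at 1718 ± 310 (SD, n = 3) with oocytes and 1557 ± 90.4 with embryos, which is -0.12 on the log2 scale. VCAM1, also picked afterwards, was the 1 of 16 homing genes that differed between sows, at 666, 175 and 147 (adjusted p = 6.26e-06). Of all probe sets 11.3% did, and 20.8% of those above the median signal.

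For the carriage of IgA across the cell, 9 of 16 genes of transcytosis were named, 3 higher and 6 lower with embryos, with a median of -0.02 and a range from -0.08 to 0.09. The vesicle proteins VAMP3 (273 and 292) and RAB11A (571 and 543), the GTPase RAB3D (218 and 230) and the IgG receptor FCGRT (596 and 573) had the smallest p, 0 of them under 0.05. The motor MYO5B and the exocyst subunits EXOC2 and EXOC6, named after their values were seen, were the 3 of 9 that differed between sows. Of all probe sets 11.3% did, and 20.8% of those above the median signal. Of 16 receptors and factors that induce PIGR, 9 were named, 6 higher and 3 lower, with a median of 0.08. Between sows 0 of the 9 differed, against the same 11.3% and 20.8%. In all 3 sows 4 of the 9 were higher and 1 lower with embryos, where 14.9% and 14.8% of all probe sets were. With the sow as a block 1 of the 9 was higher and 0 lower at an unadjusted p under 0.05. Of all probe sets 3.75% and 4.95% were. IFNGR1, the receptor of interferon gamma, was among the higher genes in both counts, at 71.6 ± 4.12 (SD, n = 3) with oocytes and 92.9 ± 4.56 with embryos. The difference was 0.37 on the log2 scale with a standard error of 0.16, and limma gave an unadjusted p of 0.0501, 0.0221 with the sow as a block, and an adjusted p of 0.492 there. IL1R1 (103 and 87.7), IL4R (81.2 and 91.3) and IRF1 (76.1 and 84.2) followed.

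Of 40 sensors and targets of the unfolded protein response, the program XBP1 belongs to, 30 were named, 11 higher and 19 lower with embryos, with a median of -0.05. Of the 30, 2 were higher and 8 lower in all 3 sows, where 14.9% and 14.8% of all probe sets were. With the sow as a block 2 higher and 1 lower had an unadjusted p under 0.05, where 3.75% and 4.95% of all probe sets did. The chaperone CALR was at 79.9 and 104 with oocytes and embryos, the cochaperone DNAJB9 at 184 and 153, the signal peptidase subunit SPCS3 at 277 and 246, and DNAJC3 at 31.2 and 21.6. Between sows 8 of 30 differed, against 3 of 9 for transcytosis and the 20.8% of probe sets above the median signal.

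Of 66 other antimicrobial genes 30 were named, 19 higher and 11 lower with embryos, with a median of 0.09, and 5 higher and 5 lower in all 3 sows, against 14.9% and 14.8% of all probe sets. The lactoperoxidase LPO had the smallest p without the block (14.7 and 6.63, unadjusted p = 0.0482 from limma). RNASE4, a secreted ribonuclease, was bright and lower with embryos in all 3 sows, at 812 ± 198 (SD, n = 3) with oocytes and 585 ± 104 with embryos. The difference was -0.46 on the log2 scale with a standard error of 0.21, and limma gave an unadjusted p of 0.0539, 0.000168 with the sow as a block, and an adjusted p of 0.183 there. The oxidases DUOX1 (7.67 and 3.80) and DUOX2 (12.3 and 7.47) were dim and lower in each sow. A total of 5 of 30 differed between sows, against 11.3% of all probe sets and 20.8% of those above the median signal. They were RNASE4, the ribonuclease ANG, the second DEFB1 gene and the whey acidic protein genes WFDC1 and WFDC2, of which RNASE4 alone is covered by the rule for naming.

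**Figure D4:**
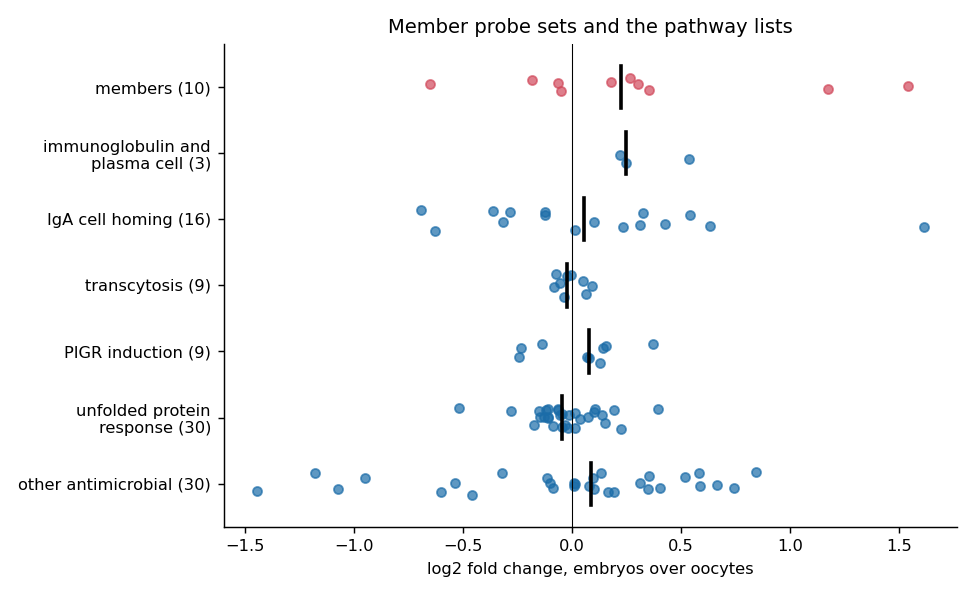
Log2 fold change of embryos over oocytes (x axis) for the 10 member probe sets (red) and for the genes of 6 pathway lists at their brightest probe set (blue), with the number of points in brackets and black bars at the medians. The medians lie between -0.05 and 0.25, and the widest points of the members, LTF and PGLYRP1, are dim probe sets.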

How the data were processed

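The authors hybridized 1 Affymetrix porcine array per horn and made signals with Microarray Suite (MAS5, version 5.1 in the submitters' processing notes). The deposited values are intensity signals per probe set on a linear scale, scaled so that the mean without the highest and lowest 2% was 100.02 on each array. The Lowess step of the methods was not in them, and detection calls were not used here. With 3 arrays a group the precision is limited by their number.

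Signals were floored at 0.1, put on a log2 scale and normalized by cyclic loess, and 124 control probe sets were left out. The 23999 others were fitted with limma 3.58.1 in R 4.3.3 (group as the only term, variance trend, Benjamini-Hochberg adjustment at 0.05). The annotation gives 1 symbol for 10069 probe sets, several for 198 and none for 13732.

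The replicate number was taken as the sow, since the per-animal ratios in the methods match arrays of equal number. Deviations from the group means correlated at 0.207, 0.173 and 0.100 within pairs. A second model added the sow as a block.

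The test between sows was added after the values had been seen. The members, the 14 gene lists and the tests were chosen with earlier results of these data known. All member probe sets are named, and up to 4 genes of each pathway list, those with the smallest p. Alternatives were deposited signals, quantile normalization, a common median, an offset of 32, the upper part of the array by mean signal, a constant prior variance, the model with sows, all probe sets of a listed gene, and leaving out each array. Red cell and ciliated cell markers (3 and 2 on the array) had medians of 0.10 and 0.02, and smooth muscle markers (7) of -0.07.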

Additional observations from a re-analysis of the deposited data

How the results depend on the processing

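No probe set of the 10, and 0 of the whole array, passed an adjusted p of 0.05 between the horns under any of the 13 alternatives, replicate block included, where the smallest adjusted p among the 10 was 0.523 and over the array 0.0810. The median log2 fold change of the 10, 0.22, ran from 0.05 to 0.31 over arrays left out and was 0.07 with 32 added to each signal. The 6 dim probe sets have no value in the fit above the median signal. Signs turned in 17 of 124 refits of single probe sets. With 32 added to each signal the dimmer PIGR probe set was at -0.0365 and the dimmer BPI probe set at 0.0021. Leaving out single arrays gave ranges of -0.28 to 0.63 for the brighter PIGR probe set and -0.75 to 0.92 for the dimmer one, -0.52 to 0.68 for JCHAIN, 0.56 to 1.64 for LTF, -0.24 to 0.10 for XBP1, -0.14 to 0.97 for SLPI, -1.22 to 0.27 for PBD-1, -0.58 to 0.04 for the brighter BPI probe set and -0.35 to 0.15 for the dimmer one. For PGLYRP1 the range was 0.66 to 2.14. The count of 4 probe sets that differed between sows was 0 without the variance trend, 3 with arrays shifted to the same median and 4 to 5 over arrays left out. List medians moved by more than their spread between sows in 36 of 195 refits.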
